A study of Mus musculus with 6 samples.

Results

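The genes described here are 38 genes of DNA damage signalling and repair, out of the 16081 genes listed in each sample. They were chosen by symbol, by a rule that holds no measured value, but with earlier results of these data known. They were grouped by role into 7 checkpoint genes, 11 genes of homologous recombination, 4 of interstrand crosslink repair, 2 of mismatch repair, 8 of nucleotide excision repair, 4 of end joining and 2 of single-strand break repair. All 38 were listed, and all 38 passed the filter on low counts. Mouse lung carcinoma cells of the Lewis line were profiled by RNA-seq after 24 hours with SD70, an inhibitor of the histone demethylase KDM4C, or with its vehicle DMSO, to find the genes whose expression SD70 changed. Each group had 3 samples. Both groups were the same parental line in culture, with no knockdown, no irradiation and no other agent given in the labels, so that the comparison is of 1 cell line under 1 drug at 1 time point. Neither the labels nor the methods give the SD70 dose of this experiment. The methods speak of independent repeats for the paper's experiments in general, but neither source says of these 3 samples per group that they came from separate cultures, and p-values measure the spread between these samples, which may be technical.

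A cell answers DNA damage in layers. The kinases ATM and ATR sense double-strand breaks and stalled replication forks, and pass the signal on to CHEK2 and CHEK1, which hold the cell cycle. Repair then follows the kind of lesion: breaks are joined end to end by the Ku complex and DNA-PK or copied from the sister chromatid by the BRCA proteins, bulky adducts are cut out by the XP and ERCC proteins, crosslinks are unhooked by the Fanconi proteins, and mispaired bases are removed by the MutS and MutL complexes. In tumor cells, many of these genes are transcribed most strongly while DNA is being replicated.

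Totals ranged from 15276744 to 17060424 counts per sample, and the biological coefficient of variation within a group was 0.046. The median member had a coefficient of variation of 4.26% among the DMSO samples and 5.77% among the SD70 samples, the highest values being 13.8% for Ercc1 and 21.9% for Fancc. Kdm4c itself, at 753 ± 34.6 normalized counts in the DMSO group and 765 ± 34.2 in the SD70 group (SD, n = 3 each), was not called, and its RNA does not measure the activity of its enzyme. The labels describe the line as lung adenocarcinoma. The epithelial markers Epcam, Cdh1, Krt19 and Sftpc were each at or under 1.1 normalized counts in every sample, whereas the keratin Krt8 was at 3825 to 4031 with DMSO. Of 11 fibroblast and mesenchymal markers, Cdh2, Col1a1, Col1a2 and Acta2 were at or under 12.1 normalized counts in every sample, and the 7 that could be tested were all called, 4 lower (Vim, Fn1, Col3a1 and Twist1) and 3 higher (Snai2, Pdgfrb and Zeb1). The 11 markers, mostly Vim, summed to 89464 to 98957 normalized counts with DMSO and 73086 to 78297 with SD70. The 8 listed epithelial and lung markers, mostly Krt8, summed to 4041 to 4226 normalized counts with DMSO and 2629 to 2961 with SD70, the 4 that could be tested all being lower. The common leukocyte gene Ptprc was at 0 in the DMSO samples and at most 2.2 with SD70. The 8 listed leukocyte markers, mostly Cd68, summed to 266 to 277 normalized counts with DMSO and 191 to 224 with SD70, and 1 of the 3 that could be tested was called lower.

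SD70 changed 13 of the 38 members, in both directions and by less than 2-fold each. The 6 that were higher were the checkpoint genes Chek1 and Atr, the recombination genes Nbn, Brca2 and Rad52, and the end joining gene Xrcc6. The 7 that were lower were the mismatch repair genes Msh6 and Pms2, the recombination genes Rad54l, Mre11a and Brca1, and the excision repair genes Ddb2 and Ercc3. A gene was called at an adjusted p-value under 0.01 (quasi-likelihood test of edgeR, adjusted by Benjamini and Hochberg's method over the 11552 genes tested). By that rule 49.9% of all genes tested were called, 25.8% higher and 24.2% lower, against 34.2% of the members, 15.8% higher and 18.4% lower. The share of called genes was thus lower among the members than among genes at large, a difference that was described and not tested. With a 2-fold minimum added, 5.9% of all genes passed, 3.29% upward and 2.61% downward, but 0 of the members. The members' log2 fold changes ran from -0.75 to 0.68 with a median of -0.03, against a median of -0.004 over all genes tested, and their median size without regard to sign was 0.15, against 0.25 over all genes. The samples of the 2 groups did not overlap in 21 members (55.3%), against 64.4% of all genes tested. In 10 of them the SD70 samples were above (32.8% of all genes) and in 11 below (31.6%). In a culture, a change in RNA per cell cannot be told apart from a change in the share of cells that express the gene.

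**Figure D1:**
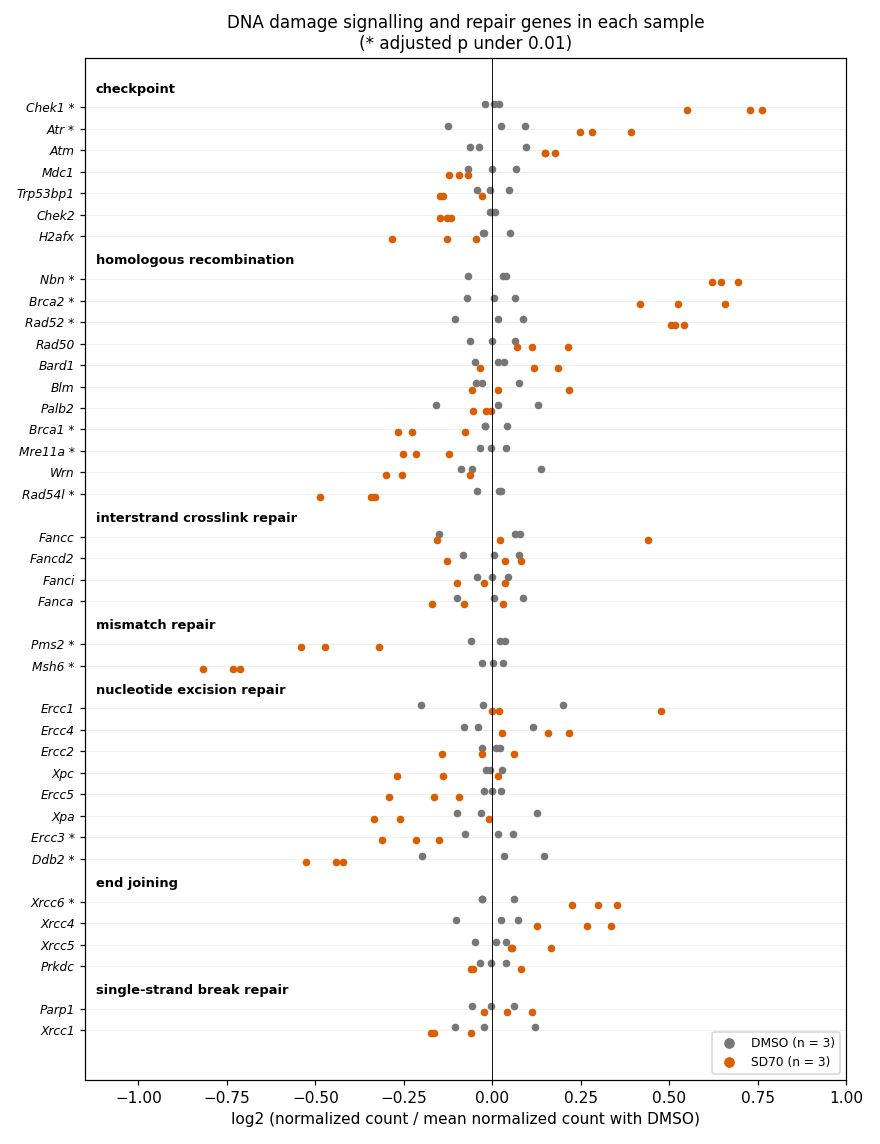
Each point is 1 sample (grey, DMSO; orange, SD70; n = 3 each), placed by the log2 of its normalized count over the mean of the DMSO samples, for the 38 members by role. Chek1, Nbn, Brca2 and Rad52 stand clear to the right and Msh6, Pms2, Ddb2 and Rad54l clear to the left, while the 4 crosslink repair genes overlap zero; a star marks an adjusted p under 0.01.

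**Figure D2:**
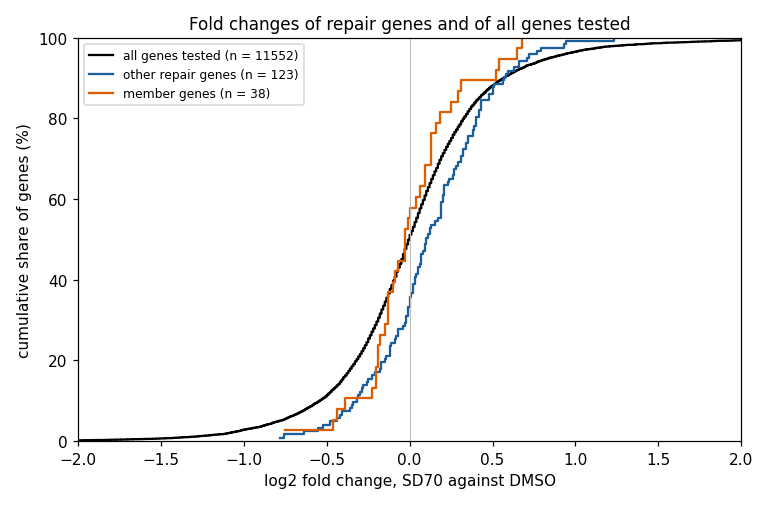
Cumulative share of genes, in percent, at or below each log2 fold change (SD70 against DMSO; horizontal axis limited to 2 in either direction) for all 11552 genes tested, for 123 other repair genes and for the 38 members. The curve of the members is steeper around zero than that of all genes, with a median of -0.03, and the other repair genes lie to the right, with a median of 0.10.

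The stretch of DNA just before the transcription start was compared between members that rose and members that fell, in the RefSeq promoter windows of GRCm38.p6. Of the 38 members, 29 had a window, of which 250 bases upstream of the start were read on both strands. A CCAAT box, searched as the letters CCAAT, was found in 17 of the 29 (58.6%), against 38% of the windows of the genes tested and 34.5% of all 27025 windows. It was in the windows of all 5 called-lower members that had one (Msh6, Pms2, Mre11a, Brca1 and Rad54l), in 0 of 5 called-higher members (Chek1, Atr, Brca2, Rad52 and Xrcc6) and in 12 of 19 (63.2%) members that were not called. These are counts of a short word over few genes, given as a description. The windows of 2 lower and 2 higher members are shown, written 5′ to 3′ along the strand of the gene with CCAAT or its reverse complement in capitals, and end at the base before the start:
Msh6 (chr17:87974800-87975049, plus strand): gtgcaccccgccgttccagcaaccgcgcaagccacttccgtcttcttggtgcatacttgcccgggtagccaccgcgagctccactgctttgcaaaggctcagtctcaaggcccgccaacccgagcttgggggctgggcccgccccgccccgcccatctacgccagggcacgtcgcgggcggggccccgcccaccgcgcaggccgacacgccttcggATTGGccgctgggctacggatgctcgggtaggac
Mre11a (chr9:14784404-14784653, plus strand): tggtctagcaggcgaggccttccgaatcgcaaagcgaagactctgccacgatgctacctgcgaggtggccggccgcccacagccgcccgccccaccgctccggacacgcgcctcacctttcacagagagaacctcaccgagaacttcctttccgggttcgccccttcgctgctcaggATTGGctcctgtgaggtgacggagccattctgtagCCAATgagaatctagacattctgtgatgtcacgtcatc
Chek1 (chr9:36726659-36726908, minus strand): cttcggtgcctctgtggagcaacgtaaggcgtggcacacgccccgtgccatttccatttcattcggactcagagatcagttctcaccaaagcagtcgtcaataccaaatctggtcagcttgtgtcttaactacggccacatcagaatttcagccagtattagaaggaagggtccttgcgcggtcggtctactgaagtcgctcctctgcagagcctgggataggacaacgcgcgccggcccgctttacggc
Atr (chr9:95857347-95857596, plus strand): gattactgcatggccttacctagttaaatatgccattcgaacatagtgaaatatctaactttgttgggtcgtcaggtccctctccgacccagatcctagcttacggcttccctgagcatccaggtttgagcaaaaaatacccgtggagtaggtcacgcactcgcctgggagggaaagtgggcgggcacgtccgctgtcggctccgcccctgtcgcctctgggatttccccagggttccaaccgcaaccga

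In the Msh6 window, the box lay 34 to 30 bases before the start, in sequence with a GC content of 70.8%. Mre11a had a box at 73 to 69 and a second at 38 to 34 bases, and the Pms2 window, not printed here, held 3, the nearest at 33 to 29 bases. The Chek1 and Atr windows, each with a GC content of 55.2%, held none. An E2F-type word, searched as TTTGGCGC, TTTCCCGC or TTTCGCGC, none of which contains another word searched, was in 5 of the 29 members' windows (17.2%; Brca2, Xrcc6, Bard1, Chek2 and Mdc1) and in 3.21% of those of the genes tested. In Brca2 it stood 168 to 161 bases and in Xrcc6 46 to 39 bases before the start. The cell cycle word TTTGAA was in 2 members' windows (6.90%; Ercc5 and Bard1) and in 10.7% of those of the genes tested (16.3% of all windows), and the stress-response word TGATGNAA was in 0 of 29 and in 2.04% of those of the genes tested (3.53% of all). A match marks letters and not a site in use, and no binding was measured in these samples.

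Among the 7 checkpoint members, 2 were higher (28.6%) and 0 lower, against 25.8% and 24.2% of all genes tested. Atr and Chek1 rose and Atm and Chek2 were not called, a difference between the 2 kinase pairs that was not itself tested. Chek1 (chr9:36708482-36726658, GRCm38.p6), the effector kinase that restrains the cell cycle when forks stall, had 627, 644 and 638 normalized counts with DMSO and 1079, 932 and 1054 with SD70. The groups were far apart, every SD70 sample lying well above every DMSO sample, and the log2 fold change was 0.68 (SE 0.0645, adjusted p = 3.76e-11 by edgeR), a 1.61-fold rise. Atr (chr9:95857597-95953217), the apical kinase of the same branch, had 1826, 1740 and 1569 normalized counts with DMSO and 2243, 2082 and 2033 with SD70. Here too the groups did not overlap, but the rise was smaller, at a log2 fold change of 0.31 (SE 0.0575, adjusted p = 2.18e-05 by edgeR). With limma on log2 FPKM, Atr was not called (adjusted p = 0.0195 and 0.0210 with the 2 pseudocounts tried), nor was it against a minimum fold change of 1.2 (0.219).

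Atm, the kinase that answers double-strand breaks, had 1234, 1375 and 1256 normalized counts with DMSO and 1429, 1429 and 1455 with SD70. The groups were separate, but its log2 fold change of 0.16 missed the threshold (adjusted p = 0.0153 by edgeR). Chek2, the effector kinase downstream of ATM, was tight in both groups, at 244, 245 and 246 and at 226, 224 and 221 normalized counts. Its log2 fold change of -0.13 had a 95% interval from -0.31 to 0.05 and an adjusted p of 0.239. H2afx, which codes for the histone variant phosphorylated around breaks, had 843, 842 and 887 normalized counts with DMSO and 704, 784 and 830 with SD70, lower in each SD70 sample, at a log2 fold change of -0.15 (adjusted p = 0.0426 by edgeR). Mdc1, which binds that mark, and Trp53bp1, a chromatin adaptor at breaks, had log2 fold changes of -0.09 (adjusted p = 0.122) and -0.10 (adjusted p = 0.1). Trp53bp1 shares 15.0% of its exonic bases with Tubgcp4 on the opposite strand, and the strand setting of the counting is not given in the sources used here.

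Of the 11 genes of homologous recombination, 3 were higher and 3 lower (27.3% each), shares near the 25.8% and 24.2% of all genes tested. Genes of both directions were found in the MRN complex, the sensor and nuclease that first binds broken ends. Nbn (chr4:15957587-15992589), its signalling subunit, had 543, 507 and 546 normalized counts with DMSO and 833, 817 and 861 with SD70. Those groups lay far apart, at a log2 fold change of 0.65 (SE 0.0651, adjusted p = 1.26e-10 by edgeR). Mre11a (chr9:14784654-14837125), its nuclease, had 1712, 1751 and 1800 normalized counts with DMSO and 1610, 1473 and 1509 with SD70. It moved the other way, with groups that were separate but close, at a log2 fold change of -0.20 (SE 0.0542, adjusted p = 0.00220 by edgeR). That call was lost without DMSO replicate 3 (adjusted p = 0.0131) and without SD70 replicate 2 (0.0181). Rad50, the ATPase that ties the broken ends together, had 2091, 1997 and 1913 normalized counts with DMSO and 2317, 2100 and 2162 with SD70, each above the highest DMSO sample, at a log2 fold change of 0.13 (adjusted p = 0.0336 by edgeR).

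Brca2 (chr5:150522297-150570147), a mediator of recombination at resected DNA, had 1024, 983 and 933 normalized counts with DMSO and 1544, 1309 and 1410 with SD70. The lowest SD70 sample was well above the highest DMSO sample, and the log2 fold change was 0.54 (SE 0.0615, adjusted p = 3.16e-09 by edgeR). Rad52 (chr6:119901722-119922827), which anneals single strands, was a low gene, at 169, 148 and 161 normalized counts with DMSO and 232, 228 and 226 with SD70. Despite the low counts its groups were separate, at a log2 fold change of 0.52 (SE 0.102, adjusted p = 3.91e-05 by edgeR). Rad54l (chr4:116094261-116123700), a motor protein of strand invasion, had 795, 799 and 761 normalized counts with DMSO and 624, 560 and 619 with SD70. It was lower in every SD70 sample, at a log2 fold change of -0.39 (SE 0.0657, adjusted p = 5.37e-06 by edgeR). It shares 15.4% of its exonic bases with Lrrc41 on the opposite strand, and its deposited counts were not whole numbers in any sample, so that its level is uncertain to that extent. Lrrc41 had a log2 fold change of 0.07. Against a minimum fold change of 1.2 (edgeR's glmTreat), the Rad54l call was lost (adjusted p = 0.0342).

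Brca1 (chr11:101488761-101551955), the ubiquitin ligase that favours resection, had 1011, 969 and 969 normalized counts with DMSO and 931, 839 and 817 with SD70. The groups were separate by a small margin, and the log2 fold change of -0.19 (SE 0.0616) passed the threshold narrowly, at an adjusted p of 0.0089 by edgeR. Without DMSO replicate 1, 2 or 3, or without SD70 replicate 2 or 3, the Brca1 call was lost, with adjusted p from 0.0138 to 0.0441, and it was lost as well with DESeq2 (0.0194), with both limma fits (0.0272 and 0.0273) and against a minimum fold change of 1.2. Its partner Bard1 (log2 fold change 0.09, 95% interval -0.05 to 0.22) and Palb2, the bridge between BRCA1 and BRCA2 (-0.03, -0.23 to 0.17), were not called. Of the 2 RecQ helicases that unwind recombination intermediates, Blm had a log2 fold change of 0.06 (95% interval -0.06 to 0.19). Wrn had 987, 845 and 863 normalized counts with DMSO and 860, 753 and 730 with SD70, which overlap, and a log2 fold change of -0.20 (adjusted p = 0.0127 by edgeR). Wrn was called lower with the replicate number as a block (adjusted p = 0.00454), and in 6 other alternative fits.

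Both mismatch repair genes were lower, as were 24.2% of all genes tested, and Msh6 had the largest change of the 38. Msh6 (chr17:87975050-87990892), which recognizes single mispaired bases, had 2941, 2999 and 2877 normalized counts with DMSO and 1767, 1792 and 1666 with SD70. Both groups were tight and far apart, the log2 fold change being -0.75 (SE 0.0516, adjusted p = 1.06e-14 by edgeR), a fall of 40.7%. Pms2 (chr5:143909901-143972745), which carries the endonuclease activity of mismatch repair, had 648, 686 and 692 normalized counts with DMSO and 487, 541 and 464 with SD70. Its groups were separate too, at a log2 fold change of -0.44 (SE 0.0709, adjusted p = 2.26e-06 by edgeR). The log2 fold change of Msh6 stayed between -0.78 and -0.73 when any 1 sample was left out, and both members were called in each of the 15 alternative fits.

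In nucleotide excision repair, 2 of 8 genes (25.0%) were lower, a share near the 24.2% of all genes tested, and 0 were higher. Ddb2 (chr2:91211545-91237132), which finds ultraviolet lesions in chromatin, had 196, 212 and 167 normalized counts with DMSO and 141, 143 and 133 with SD70. The groups did not overlap, at a log2 fold change of -0.46 (SE 0.113, adjusted p = 7.06e-04 by edgeR). Ddb2 shares 23.8% of its exonic bases with Acp2 on the opposite strand, whose log2 fold change was 0.52, and its counts were not whole in any sample. Against a minimum fold change of 1.2, the Ddb2 call was lost (adjusted p = 0.0446 by glmTreat). Ercc3 (chromosome 18, 32240304 to 32270151), a helicase of TFIIH, the complex that opens DNA around a lesion, had 870, 792 and 844 normalized counts with DMSO and 673, 719 and 753 with SD70. Its groups were separate, at a log2 fold change of -0.23 (SE 0.0643, adjusted p = 0.00297 by edgeR). That call was lost without DMSO replicate 1 (adjusted p = 0.0194), DMSO replicate 3 (0.0103) or SD70 replicate 1 (0.0226).

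The other 6 excision genes were not called. The second TFIIH helicase, Ercc2, had a log2 fold change of -0.03 (95% interval -0.19 to 0.12). Ercc2 shares 17.8% of its exonic bases with Klc3 on the opposite strand, a gene at a mean of 22.9 normalized counts. The Ercc2 counts were not whole in any sample. The damage sensor Xpc (-0.13) and the scaffold Xpa (-0.19) had intervals of -0.31 to 0.05 and -0.39 to -0.00. The adjusted p of Xpa was 0.0878 by edgeR. Of the nucleases that cut on either side of the lesion, Ercc5 had 521, 504 and 512 normalized counts with DMSO and 480, 418 and 457 with SD70, in separate groups, the log2 fold change being -0.18 (adjusted p = 0.0308 by edgeR). Ercc1 and Ercc4, which form the other nuclease, had log2 fold changes of 0.18 (95% interval -0.07 to 0.43) and 0.13 (-0.07 to 0.33). Ercc1 was read from 140 to 224 normalized counts per sample, and its interval was among the widest.

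In end joining, Xrcc6 (chr15:81987833-82040085), which codes for the smaller Ku subunit, had 820, 873 and 820 normalized counts with DMSO and 1030, 1068 and 979 with SD70. The groups were separate, at a log2 fold change of 0.29 (SE 0.0601, adjusted p = 8.52e-05 by edgeR), a call that was lost against a minimum fold change of 1.2 (adjusted p = 0.321 by glmTreat). Xrcc5, the larger Ku subunit, had 1450, 1510 and 1541 with DMSO and 1683, 1555 and 1559 with SD70, all above the DMSO samples, and a log2 fold change of 0.09 (adjusted p = 0.148). Xrcc4, the scaffold for the ligase, had 236, 228 and 209 with DMSO and 283, 270 and 245 with SD70, again separate, and a log2 fold change of 0.25 (adjusted p = 0.0229 by edgeR). Prkdc, the catalytic subunit of DNA-PK, had a log2 fold change of -0.01 (95% interval -0.13 to 0.11). In end joining, 1 of the 4 genes was called higher (25.0%), against 25.8% of all genes tested.

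None of the 4 Fanconi genes and neither of the 2 single-strand break genes was called, against 49.9% of all genes tested. The DMSO and SD70 groups overlapped in all 6, while they were separate in 64.4% of all genes tested. So few genes do not set these roles apart. Fancd2 and Fanci, whose products are ubiquitinated as a pair at a crosslink, had log2 fold changes of -0.00 (95% interval -0.14 to 0.14) and -0.03 (-0.18 to 0.13). Fanci shares 16.0% of its exonic bases with Polg on the opposite strand, and its counts were not whole in any sample. Fanca and Fancc, of the core complex that ubiquitinates FANCD2 and FANCI, had -0.07 (-0.18 to 0.04) and 0.13 (-0.16 to 0.42). Parp1, which marks breaks with poly(ADP-ribose), had 2586, 2805 and 2682 normalized counts with DMSO and 2645, 2770 and 2910 with SD70, a log2 fold change of 0.04 (95% interval -0.06 to 0.15). Xrcc1, the scaffold recruited to that mark, had a log2 fold change of -0.13 (95% interval -0.28 to 0.02).

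Compared per length as FPKM, the levels of the members with DMSO spanned 33.1-fold. Fanca was the highest, at 69.1 ± 4.32 FPKM (SD, n = 3), followed by Parp1 at 45.0 ± 1.92, Msh6 at 43.9 ± 1.07, H2afx at 43.9 ± 0.871 and Xrcc5 at 38.4 ± 1.11. Fanca shares 10.5% of its exonic bases with Zfp276 on the opposite strand, and its counts were not whole. The lowest were Palb2 at 3.83 ± 0.558 FPKM, Ercc4 at 2.18 ± 0.231 and Fancc at 2.09 ± 0.206. The median member stood at 10.8 FPKM, and the median gene tested at 13.2. In the order of DMSO levels, 11 of the 37 neighbouring pairs did not overlap between their samples. Parp1, Msh6 and H2afx overlapped as neighbours, while Xrcc5 was separate from H2afx. The neighbours from Ercc3 at 20.4 FPKM through Atr, Mre11a, Xpa and Mdc1 to Blm at 16.8 also overlapped one another in turn. With SD70, Msh6 stood at 25.4 ± 0.973 FPKM, near Rad50 at 26.3 ± 1.28, Chek1 moved from 12.1 ± 0.176 to 18.9 ± 1.43, and Nbn from 14.0 ± 0.562 to 21.7 ± 0.546.

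**Figure D3:**
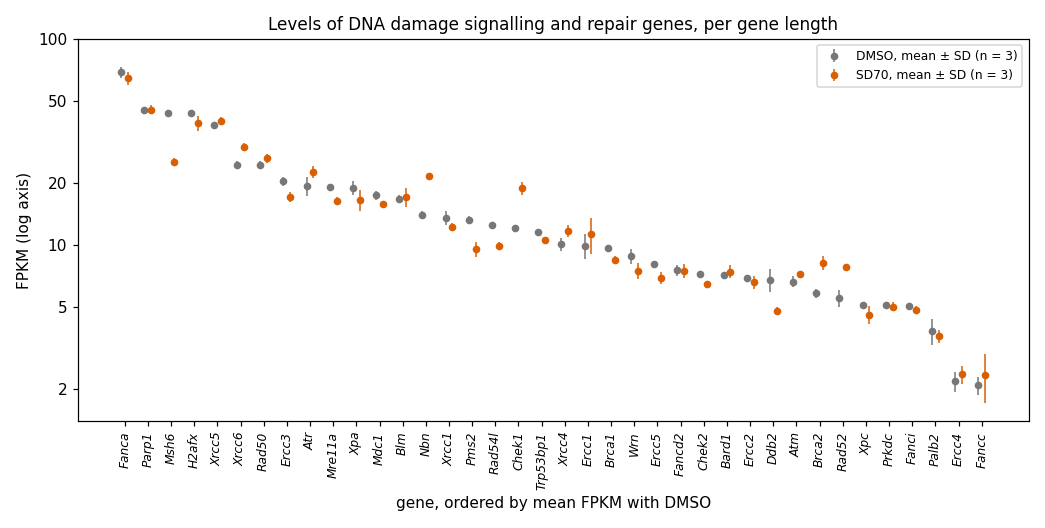
Mean FPKM (log axis) of the 38 members with DMSO (grey) and SD70 (orange), ordered by the DMSO level; bars are SD, n = 3 per group. The DMSO means run from 69.1 for Fanca to 2.09 for Fancc, and the 2 groups are set furthest apart for Msh6, Chek1 and Nbn.

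Since many of these proteins act together, ratios of genes paired by function, called partners here, were computed from FPKM per sample for 14 pairs. Not all pairs form a complex. Atr/Chek1 and Atm/Chek2 are each a kinase and its effector, Blm/Wrn are both RecQ helicases, and Trp53bp1/Brca1 are an adaptor and a ligase. The Nbn/Mre11a ratio, on a log2 scale, was -0.40, -0.53 and -0.45 with DMSO and 0.32, 0.42 and 0.46 with SD70. It changed sign: the linear ratio went from 0.729 to 1.32, a difference of 0.86 on the log2 scale (SE 0.0564). The Rad50/Mre11a ratio was 0.45, 0.35 and 0.25 with DMSO and 0.68, 0.67 and 0.68 with SD70, a difference of 0.33 (SE 0.0580) with no overlap. Brca2/Palb2 was 0.92, 0.57 and 0.36 with DMSO and 1.33, 0.97 and 1.27 with SD70, separate by a small margin (difference 0.57, SE 0.199). The mean log2 ratios of the kinase pairs moved in opposite directions, Atr/Chek1 from 0.67 to 0.26 and Atm/Chek2 from -0.13 to 0.15. Atr and Chek1 both rose, Chek1 by more, and neither Atm nor Chek2 was called.

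The Ku pair Xrcc5/Xrcc6 went from 0.65 to 0.42, Brca1/Bard1 from 0.45 to 0.19, Blm/Wrn from 0.92 to 1.18 and the TFIIH helicases Ercc2/Ercc3 from -1.56 to -1.37, each without overlap. In all, 9 of the 14 ratios were separate between groups. Among single genes the groups were separate in 64.4% of all genes tested, but no such share was computed for ratios of other gene pairs. The count is therefore not read as particular to these pairs. In the other 5, Fancd2/Fanci, Ercc1/Ercc4, Trp53bp1/Brca1, Parp1/Xrcc1 and Xpc/Ddb2, the groups overlapped, with differences from 0.05 to 0.32. By two-sided exact permutation tests, 3 samples against 3 cannot go below p = 0.1, which each of the 9 reached, and the adjusted p over the 14 pairs was 0.156. The ratios use the same samples as the single-gene results, so they restate those differences between genes of a pair and are not further evidence for them.

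**Figure D4:**
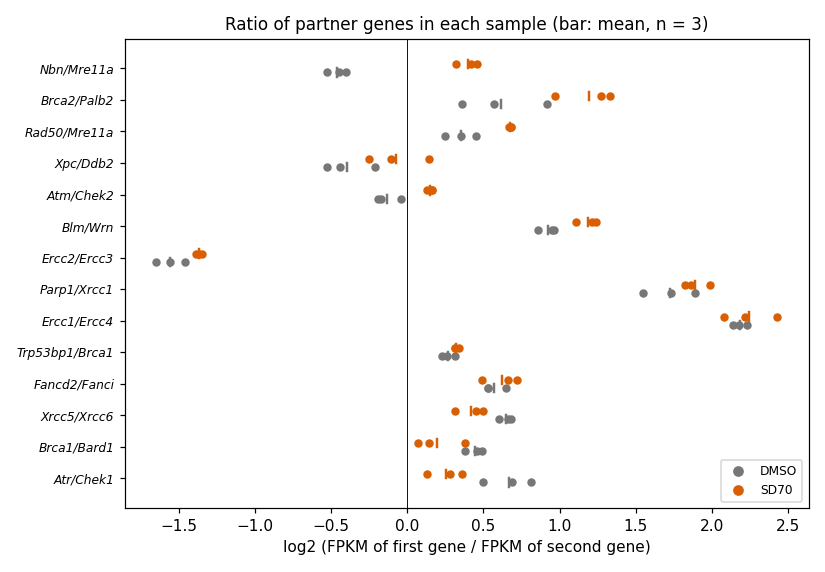
Log2 ratio of FPKM between the 2 genes of each of 14 pairs in each sample (grey, DMSO; orange, SD70), with bars at the means (n = 3 per group). Nbn/Mre11a has the widest shift, from a mean of -0.46 to 0.40, and Ercc1/Ercc4, Fancd2/Fanci and Trp53bp1/Brca1 the smallest.

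The rest of the repair pathways was described by a list of 124 other genes, chosen with earlier results of these data known. In that list, 123 genes could be tested. Of these, 47 (38.2%) were higher and 17 (13.8%) lower, against 25.8% and 24.2% of all genes tested, with 1 past 2-fold and a median log2 fold change of 0.10. The members, at 6 higher and 7 lower, were not tested against this list. For the checkpoint, 9 were higher and 4 lower of 20; for homologous recombination, 14 and 3 of 27; for crosslink repair, 6 and 2 of 13; for nucleotide excision repair, 7 and 2 of 16; for single-strand break and base repair, 7 and 2 of 24. In mismatch repair, where both members were lower, 1 of the 5 other genes was higher and 0 were lower. For end joining, 1 was higher and 2 were lower of 7, and for direct reversal and lesion tolerance 2 and 2 of 11.

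The largest rise in that list was that of Abraxas1 (log2 fold change 1.23, SE 0.0717, adjusted p = 1.35e-16 by edgeR), the scaffold of a complex that brings BRCA1 to ubiquitinated chromatin. Its mean normalized count was 365 ± 24.8 with DMSO and 859 ± 45.9 with SD70 (SD, 3 samples each), and its change was larger than that of any member. Next came Ercc8 (0.94) and Ercc6 (0.77), the Cockayne genes that start excision repair at stalled RNA polymerase, Ogg1 (0.93), the glycosylase for oxidized guanine, and Faap24 (0.79), a DNA-binding Fanconi factor. All 5 had adjusted p of 6.62e-07 or less by edgeR. The largest falls were those of Polh (-0.78), the polymerase that copies past ultraviolet lesions, Eme1 (-0.76), a subunit of a junction nuclease, Ube2t (-0.64), the ubiquitin-conjugating enzyme of the Fanconi pathway, Rpa3 (-0.55), a subunit of the single-strand binding complex, and Fen1 (-0.52), the flap nuclease. Other genes of ATR signalling in the list, picked out after their values were seen, went both ways: Rad9a (0.43), Hus1 (0.58) and Rad1 (0.57), the subunits of its clamp, and the clamp loader Rad17 (0.42) were higher, Topbp1 (-0.28) and Clspn (-0.31), which activate ATR and link it to CHEK1, were lower, and Atrip (0.07) and Etaa1 (0.03) were not called.

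**Figure D5:**
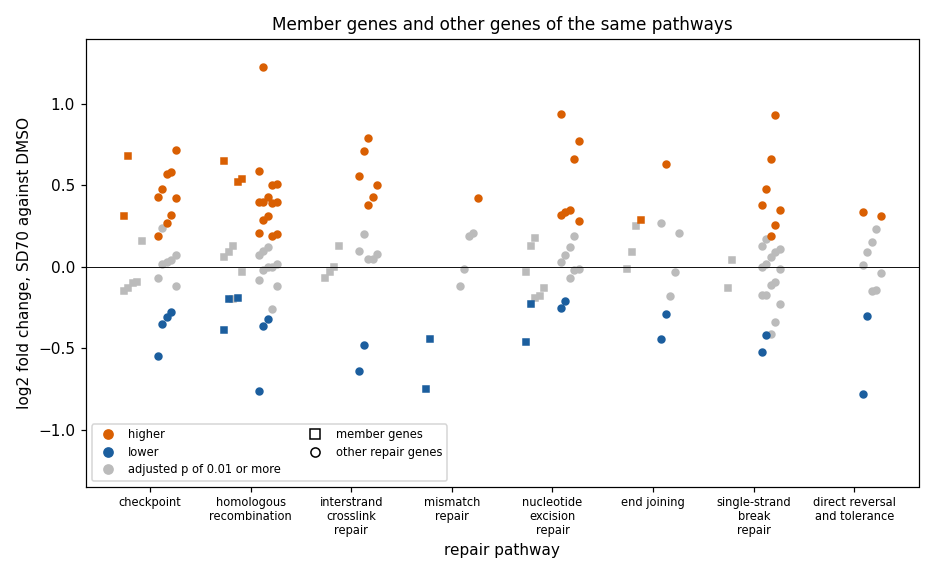
Log2 fold change (SD70 against DMSO) of each member (squares) and each of 123 other repair genes (circles), by pathway; orange and blue mark genes called higher and lower, and grey those with an adjusted p of 0.01 or more. In mismatch repair the 2 members lie at -0.75 and -0.44 and 1 of the other 5 genes is marked as higher.

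Genes of the cell cycle and of the p53 response moved in the same libraries. Their called shares stand beside 25.8% higher and 24.2% lower over all genes tested, and their lists too were chosen with earlier results of these data known. Of 15 mitosis genes, 10 were lower (66.7%) and 0 higher, among them Plk1 (log2 fold change -1.0), Aurkb (-0.93) and Bub1b (-0.76), and their summed level was 61664 to 65085 normalized counts with DMSO and 45709 to 50938 with SD70. Of 24 replication and S phase genes, 7 were higher (29.2%) and 3 lower (12.5%), including Mcm10 (0.60), Gins1 (0.34) and Ccne1 (-0.44), and they summed to 49818 to 52980 with DMSO and 54128 to 54942 with SD70. Of 17 tested p53 targets, 10 were higher (58.8%) and 3 lower (17.6%), with Eda2r (2.73), Sesn2 (2.66) and Gadd45a (2.55) furthest up, and Mdm2 at 0.76. Sesn2 and Gadd45a also answer to stress pathways other than p53. The 3 lower were Cdkn1a, the p53 target that arrests the cycle, at a log2 fold change of -1.39, Phlda3 (-0.65) and Sesn1 (-0.58). The other 4 tested targets were not called. The part of the cell cycle and of the p53 response in the repair gene results was not tested.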

How the data were processed

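The 6 samples of Lewis cells, 3 with DMSO and 3 with SD70, were grouped by the treatment in the sample labels. Libraries were made from oligo(dT)-selected mRNA and sequenced on BGISEQ-500, and the methods state alignment to GRCm38.p6 with HISAT. The submitters' processing notes name StringTie 1.3.3b and the build mm8, which differs, so coordinates and promoters here are those of the RefSeq tables for GRCm38.p6. The counting tool, its strand setting and any filter are not given in the sources used here. The labels' extraction text is worded for tissue, although the samples are cultured cells.

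For each gene and sample the authors deposited an expected count, which was not normalized and was not whole for 8.84% to 9.28% of values. The authors also deposited FPKM, scaled by gene length and library size, and it was used here to compare levels between genes. No column of other samples was present.

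Expected counts were rounded, filtered by filterByExpr and normalized by TMM (factors 0.984 to 1.02). The robust quasi-likelihood fit of edgeR 4.0.16 (R 4.3.3) was tested over 11552 genes (glmQLFTest), with Benjamini-Hochberg adjustment. The methods name no test for RNA-seq; the threshold of 0.01, which the paper gives for a p-value not said to be adjusted and is applied here to the adjusted p, and the 2-fold minimum are taken from the paper. The SE is the log2 fold change over the square root of F. Normalized counts are scaled to the mean effective library size. Totals were 15276744 to 17060424 counts, and no pair of replicates looked like 1 library deposited again (chi-square per gene 2.12 to 4.97), so each sample was counted once. The number of samples, 3 per group, limits the precision. The partner ratios were compared by exact permutation tests in Python 3.11.15 with scipy 1.17.1.

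The members and the gene lists were chosen with earlier results of these data known. The text names every member, the 5 largest rises and 5 largest falls among the called genes of the other repair list whose mean normalized count was 100 or more, the 3 largest changes in each of the p53, S phase and mitosis lists under the same conditions, Cdkn1a, Mdm2, Kdm4c, and cell type markers. Rad9a, Hus1, Rad1, Rad17, Topbp1, Clspn, Atrip, Etaa1, Phlda3 and Sesn1 were added after their values were seen, as were the overlapping genes.

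Alternatives were DESeq2 size factors, library totals, 2 other count filters, the replicate block, each sample left out, DESeq2 1.42.0, limma-trend 3.58.1 on log2(FPKM + 1) and log2(FPKM + 0.1), glmTreat against a 1.2-fold change, an adjusted p under 0.05, and normalized counts in place of FPKM for the ratios. Tested on simulated SD70 and DMSO samples with 200 changed genes, edgeR recovered 183 at a log2 fold change of 0.5 (11556 genes tested) and 200 at 1 (11529 genes tested). It made 2 and 3 false calls. At 0.5, DESeq2 recovered 162 and each limma fit 164. The simulation gave all genes 1 dispersion and changed far fewer genes than the 49.9% called here. Smaller changes, such as the -0.19 of Brca1, were not simulated. H2afx, Rad50, Nbn, Wrn, Fancd2, Xpc, Ercc3, Ddb2 and Prkdc had no promoter entry.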

Additional observations from a re-analysis of the deposited data

How the results depend on the processing

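Of the 6 members called higher, Chek1, Nbn, Brca2 and Rad52 kept their calls in all 15 alternative fits, and of the 7 called lower, Msh6 and Pms2 did. Against a minimum fold change of 1.2, edgeR's glmTreat called 2587 genes in all, 4 members higher and 2 lower, and 21 higher and 5 lower among the other repair genes. Limma on log2(FPKM + 1) called 283 genes past 2-fold. When each sample was left out in turn, 5102 to 5346 genes were called, 621 to 721 of them past 2-fold, with 6 members higher each time, 5 to 7 lower, and 38 to 46 higher and 14 to 17 lower among the other repair genes. Wrn (7 fits) and Ercc5 (library totals alone, adjusted p = 0.00949) gained a call. The sign turned only in genes and ratios that did not pass a test. With each sample left out in turn, log2 fold changes ran from -0.10 to 0.04 for Palb2, -0.02 to 0.12 for Blm, -0.06 to 0.26 for Fancc, -0.05 to 0.06 for Fancd2, -0.07 to 0.01 for Fanci, -0.09 to 0.02 for Ercc2, -0.06 to 0.02 for Prkdc and -0.02 to 0.06 for Kdm4c, and the difference in the Ercc1/Ercc4 log2 ratio ran from -0.03 to 0.14, the lowest value being that without SD70 replicate 3. Kdm4c was also at -0.01 with library totals and with both limma fits. At an adjusted p under 0.05, 9 members were higher and 10 lower, and 6953 of the 11552 genes tested were called. The cause of these moves was not tested, beyond the fewer samples that each such fit holds.

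The labels give both groups the numbers 1 to 3, and nothing says that samples of the same number were handled together. Over 9623 genes with a mean of at least 100 normalized counts, deviations of same-numbered samples had a Pearson r of 0.186, 0.305 and 0.185, but a Spearman rho of 0.149, -0.0242 and -0.00389. Over 7773 genes with a mean of at least 300, Pearson's r was 0.164, -0.0244 and -0.0204. The samples were treated as sharing only a number. With the replicate block, edgeR called 5913 genes, 692 past 2-fold, with 6 members higher, 8 lower and 0 past 2-fold, and 47 higher and 17 lower among the other repair genes.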
